A study of Mus musculus with 30 samples.

Results

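Gad1, Gad2, Slc32a1 and Abat, genes that make, package and break down the inhibitory transmitter GABA, were described in the forebrain of mice given an antipsychotic drug or no drug. They were taken as all probe sets whose gene symbol in the platform annotation is exactly Gad1, Gad2, Slc32a1, Slc6a11 or Abat. This gave 7 of the 22690 probe sets of the array, from 4 of the 5 genes and of the 12393 genes that its annotation names by a unique symbol. No probe set carried the symbol Slc6a11, the astrocytic GABA transporter, which was not analysed here. Of the 7 probe sets, 5 averaged 4 or more on the log2 scale over all arrays and were tested, among 12944 tested in all, and 2 averaged less.

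The 30 mice were males of the C57BL strain, with no genetic alteration named in the labels, and their age is given as 4 weeks. Clozapine, an atypical antipsychotic with affinity for receptors of several transmitters, was drunk by 10 of them at 12 mg/kg/day for 12 weeks. Haloperidol, a typical antipsychotic and dopamine D2 receptor antagonist, was drunk by another 10 at 1.6 mg/kg/day for the same time, although the haloperidol protocol names clozapine beside its dose. The 10 control mice received no drug. RNA of each animal was hybridised to its own Affymetrix MOE430A array without pooling, and values are log2 expression after GCRMA. The hemisphere is right in most labels and left in the tissue label. The tissue is whole forebrain, so fewer cells of a type and less RNA per cell cannot be told apart in any result given here.

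GABA is made from glutamate by glutamate decarboxylase, an enzyme that depends on pyridoxal phosphate. Gad1 encodes its GAD67 form, found throughout the neuron and held to make most of the GABA in the brain, and Gad2 encodes GAD65, which is concentrated at nerve terminals and linked to vesicular release. Slc32a1 encodes VGAT, the transporter that loads GABA and glycine into synaptic vesicles. Abat encodes GABA transaminase, the mitochondrial enzyme that degrades GABA in neurons and astrocytes. In the forebrain the first 3 of these genes mark interneurons and the projection neurons of the striatum.

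Gad1 and Gad2 encode the same enzymatic activity. The 250 bases before their listed starts are shown as background, with those of Slc32a1. No relation between these sequences and the array values was tested. Only the listed start of each gene was used, and other starts were not examined. The sequences are from RefSeq on GRCm38.p6, whose promoter table matched 3 of the 4 measured genes. They lie on the plus strand of chromosome 2, at chr2:22622077-22622326 for Gad2, chr2:70561879-70562128 for Gad1 and chr2:158610508-158610757 for Slc32a1. Capitals mark exact matches, on either strand, to any of 6 short motifs.
Gad2: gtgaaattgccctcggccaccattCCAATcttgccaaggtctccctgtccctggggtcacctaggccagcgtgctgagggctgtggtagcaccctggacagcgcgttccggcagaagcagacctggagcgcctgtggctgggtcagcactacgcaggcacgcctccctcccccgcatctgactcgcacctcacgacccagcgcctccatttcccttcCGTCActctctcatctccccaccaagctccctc
Gad1: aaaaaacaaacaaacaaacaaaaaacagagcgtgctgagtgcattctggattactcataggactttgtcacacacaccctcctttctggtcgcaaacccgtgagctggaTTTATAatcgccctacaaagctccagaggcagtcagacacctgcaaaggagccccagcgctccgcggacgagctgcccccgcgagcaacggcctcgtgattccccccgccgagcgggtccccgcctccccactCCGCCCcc
Slc32a1: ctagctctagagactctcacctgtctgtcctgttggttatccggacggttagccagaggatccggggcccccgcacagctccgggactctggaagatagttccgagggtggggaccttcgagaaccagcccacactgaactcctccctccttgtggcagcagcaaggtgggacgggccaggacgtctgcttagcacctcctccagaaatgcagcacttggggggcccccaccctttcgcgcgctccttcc
The letters searched were TATAAA for the TATA box, CCAAT for the box of that name, GGGCGG for the GC box, CAGCTG for an E-box, TAATTA for a homeodomain core and TGACG for the half-site of the cAMP response element. Gad2 held CCAAT at -226 to -222, counted back from the start, and the half-site, read as CGTCA, at -33 to -29. Gad1 held the TATA box on the reverse strand at -141 to -136 and the GC box, read as CCGCCC, at -8 to -3. Slc32a1 matched none of these letters in this window, and none of the matches overlapped another. Among 32851 mouse promoters of the same length, TATAAA was present in 12.4%, CCAAT in 33.8%, GGGCGG in 32.7%, CAGCTG in 13.0%, TAATTA in 4.84% and TGACG in 17.8%. All 3 windows were rich in G and C, with 64% and 13 CpG in Gad2, 58% and 17 CpG in Gad1, and 62.4% and 12 CpG in Slc32a1, beside medians of 52.4% and 6 CpG over the promoters compared.

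The arrays were grouped by average-linkage clustering on 1 minus the Pearson correlation over the tested probe sets, and the clusters were not the treatments. The cut was set at the fewest groups that gave 3 clusters of at least 6 arrays. This rule was chosen with earlier results of these data known. It gave cluster A with 11 arrays (3 clozapine, 5 haloperidol and 3 control), cluster B with 8 (1, 3 and 4) and cluster C with 7 (5, 0 and 2), and left 4 arrays outside. A measure of RNA quality, the signal of 3' probe sets minus that of 5' probe sets averaged over the controls for Gapdh and Actb, had a median of 0.62 in A, 0.57 in B and 1.05 in C. It was 2.45 in haloperidol 7 and 4.09 in control 1, which with haloperidol 2 correlated least with their groups. By group its median was 0.877 in clozapine, 0.562 in haloperidol and 0.672 in control. The labels give no batch or scan date. No probe set reached an adjusted p under 0.05 in any of the 3 comparisons (limma with Benjamini-Hochberg adjustment, 0% of 12944 in each). At an unadjusted p under 0.05 there were 563 for clozapine against control (4.35%), 298 for haloperidol against control (2.3%) and 406 for clozapine against haloperidol (3.14%). None of the 5 tested probe sets of the GABA genes was called in any comparison. At an unadjusted p under 0.05 there was 1, Gad2 in clozapine against control.

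**Figure D1:**
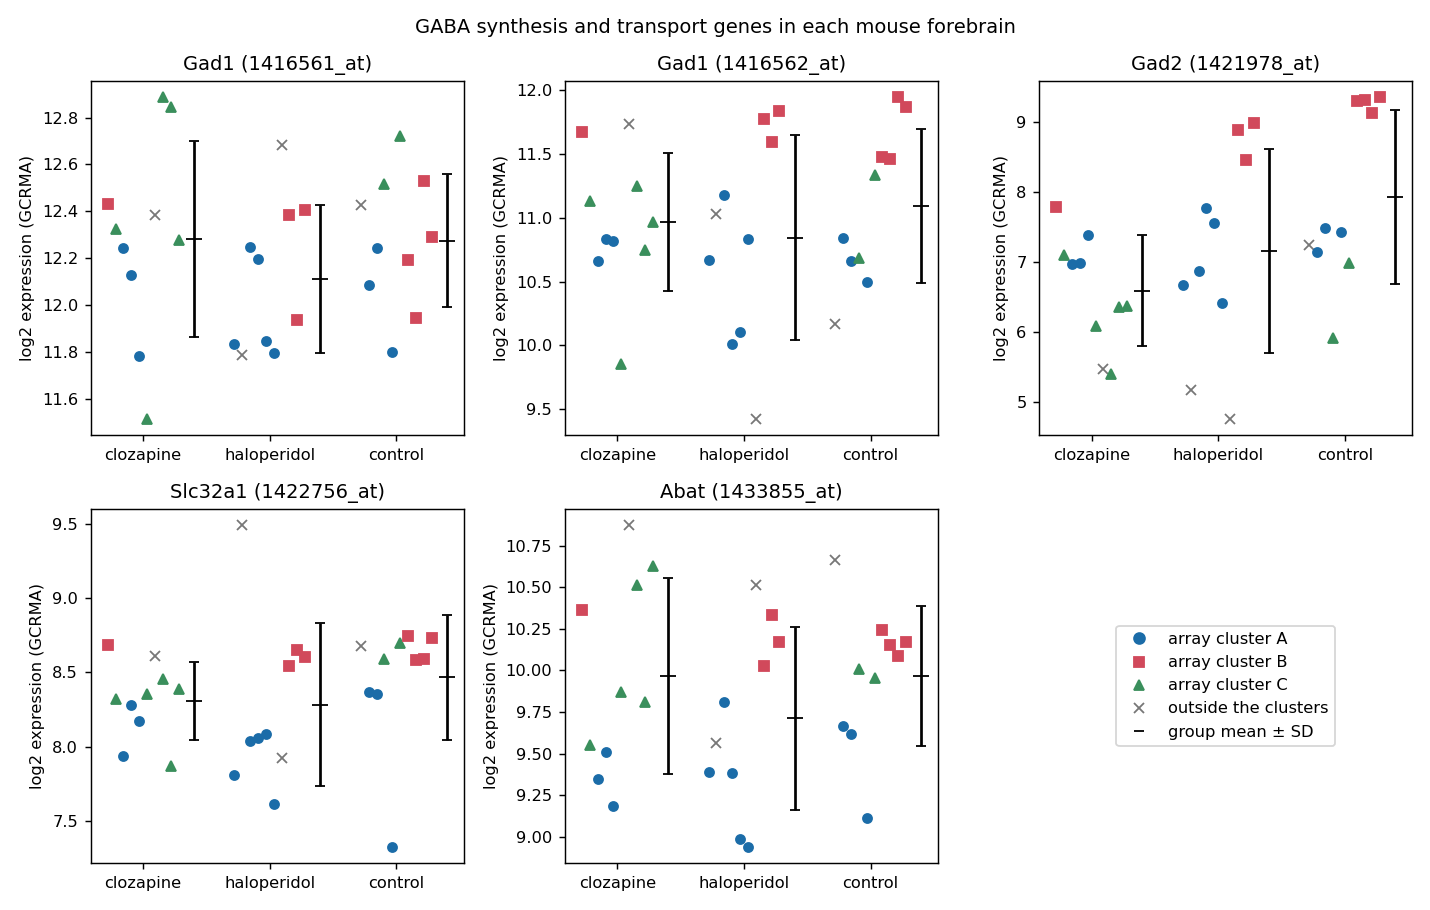
Log2 expression (GCRMA) of the 5 tested probe sets, 1 panel each, with 1 point per mouse for clozapine, haloperidol and control (n = 10 each) and the group mean ± SD to the right of the points. Colours and shapes mark the array clusters; groups overlap in every panel, and the 8 arrays of cluster B have the highest Gad2 values, 7.79 to 9.35.

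Among the 5 tested probe sets that of Gad2, 1421978_at, varied most within groups. It is the only probe set with the symbol Gad2, so its values could not be compared with those of another. Its log2 values had a lowest, median and highest of 5.40, 6.67 and 7.79 in clozapine-treated mice, 4.76, 7.22 and 8.98 in haloperidol-treated mice and 5.91, 7.46 and 9.35 in controls. The highest clozapine array lay below 3 haloperidol and 4 control arrays, and the lowest values of all were in the haloperidol group. All pairs of groups overlapped, and 8 of 10 clozapine arrays lay within the control range.

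Mean Gad2 was 6.59 ± 0.79 in clozapine-treated mice and 7.93 ± 1.24 in controls (SD, n = 10 each), a difference of -1.34 on the log2 scale (SE 0.51, 95% confidence interval -2.37 to -0.30), or 0.396-fold. All 10 clozapine arrays lay below the control mean, but the medians differed by only -0.79. The unadjusted p was 0.0135 and the adjusted p 0.9997 (limma), so the difference did not pass the correction. In haloperidol-treated mice the mean was 7.16 ± 1.46, against 7.93 ± 1.24 in controls, a difference of -0.77 (SE 0.51, interval -1.81 to 0.26, adjusted p = 0.9999 by limma), with 7 of 10 arrays below the control mean. Clozapine against haloperidol gave -0.56 (SE 0.51, interval -1.60 to 0.48, adjusted p = 0.965 by limma). Both comparisons with control use the same control arrays.

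The array clusters moved with these values. Gad2 averaged 8.90 ± 0.54 in cluster B (SD, n = 8), 7.16 ± 0.41 in A (n = 11) and 6.32 ± 0.59 in C (n = 7). The ranges were 7.79 to 9.35 in B, 6.42 to 7.77 in A and 5.40 to 7.11 in C, so no array of B lay below any of A or C. Cluster membership accounted for 82.1% of the variance of Gad2 over the 26 clustered arrays, beside a median of 40.8% over all tested probe sets, and 501 of those had a larger spread within groups than its SD of 1.19. The clusters were built from all tested probe sets, these included, so this is a description. Clozapine and cluster cannot be told apart in B, which holds 1 clozapine array, nor haloperidol and cluster in C, which holds 0 haloperidol arrays.

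Among controls, the 4 arrays of cluster B had Gad2 values of 9.30, 9.31, 9.13 and 9.35, and the other 6 lay between 5.91 and 7.49. Among haloperidol arrays, the 3 of cluster B had 8.89, 8.45 and 8.98, the 5 of cluster A lay between 6.42 and 7.77, and haloperidol 2 and 7, outside the clusters, had 5.17 and 4.76. The only clozapine array of cluster B, clozapine 1, had 7.79, the highest value of its group. The 3 clozapine arrays of A had 6.97, 6.99 and 7.39, the 5 of C lay between 5.40 and 7.11, and clozapine 7, outside the clusters, had 5.48.

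The values were also set out by the replicate number in the labels. Over numbers 1 to 6 mean Gad2 was 7.06 with clozapine, 6.75 with haloperidol and 7.03 in controls (n = 6 each). Over numbers 7 to 10 it was 5.90 with clozapine, 7.77 with haloperidol and 9.27 in controls (n = 4 each). The clozapine and control means thus lay close together over the first 6 numbers, and the split was made after the values were seen, so it was not tested.

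**Figure D2:**
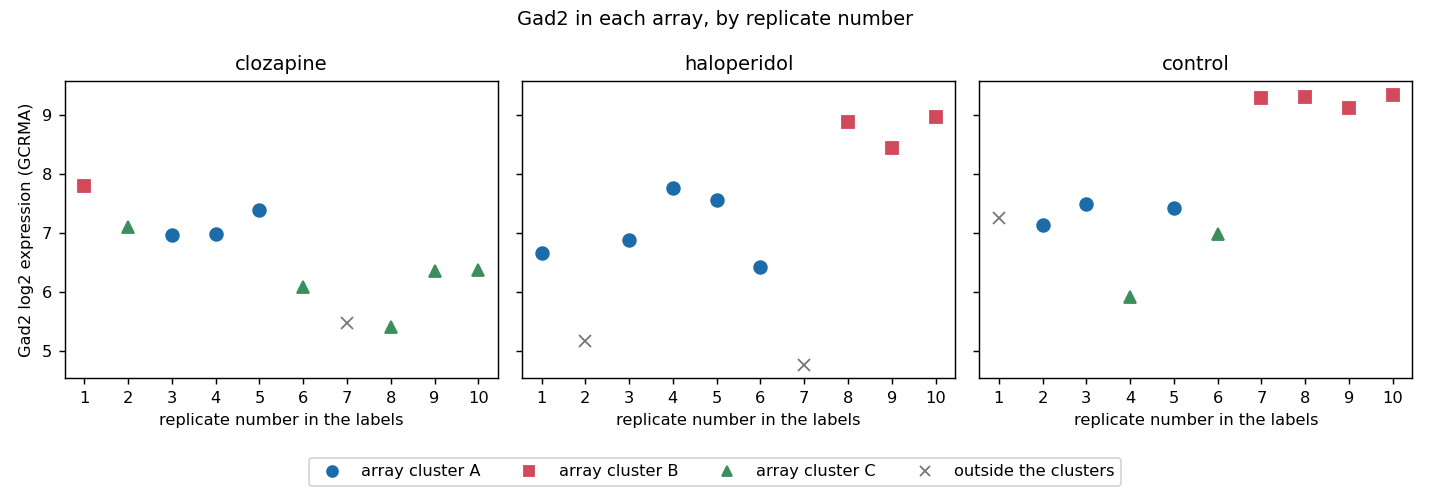
Log2 expression (GCRMA) of Gad2 in each array, plotted at the replicate number the labels give, for clozapine, haloperidol and control (n = 10 each), with array clusters marked. Controls 7 to 10 sit between 9.13 and 9.35 and haloperidol 8 to 10 between 8.45 and 8.98, all in cluster B, while clozapine 7 to 10 sit between 5.40 and 6.37.

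Within clusters, clozapine minus control for Gad2 was -0.24 in A (3 against 3 arrays), -1.48 in B (1 against 4) and -0.18 in C (5 against 2). Haloperidol minus control was -0.29 in A (5 against 3) and -0.50 in B (3 against 4). Clozapine minus haloperidol was 0.055 in A (3 against 5) and -0.98 in B (1 against 3). Every within-cluster difference from control was below 0, yet those of A and C were far smaller than the difference over all arrays.

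With the cluster as a block over 26 arrays, Gad2 differed by -0.47 (SE 0.23, unadjusted p = 0.0513, adjusted p = 0.713 by limma) for clozapine, by -0.36 (SE 0.23) for haloperidol and by -0.11 (SE 0.25) between the drugs. In the same 26 arrays without the block these were -1.29, -0.30 and -0.98. Without the 3 outlying arrays they were -1.41, -0.30 and -1.11. Leaving out haloperidol 7 alone gave -0.51 for haloperidol against control. Weighting the arrays by limma's arrayWeights gave -2.16 for clozapine against control (SE 0.42, adjusted p = 0.0036 by limma), the only call of a GABA gene in any setting. That setting called 1731 probe sets (13.4%) and gave the 4 control arrays of cluster B weights of 3.44 to 4.86, beside 1.06 to 1.63 for the other 4 arrays of B, 0.338 to 1.47 in A and 0.782 to 1.69 in C. With weights and the cluster block together, Gad2 gave -0.49 (adjusted p = 0.600 by limma).

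**Figure D3:**
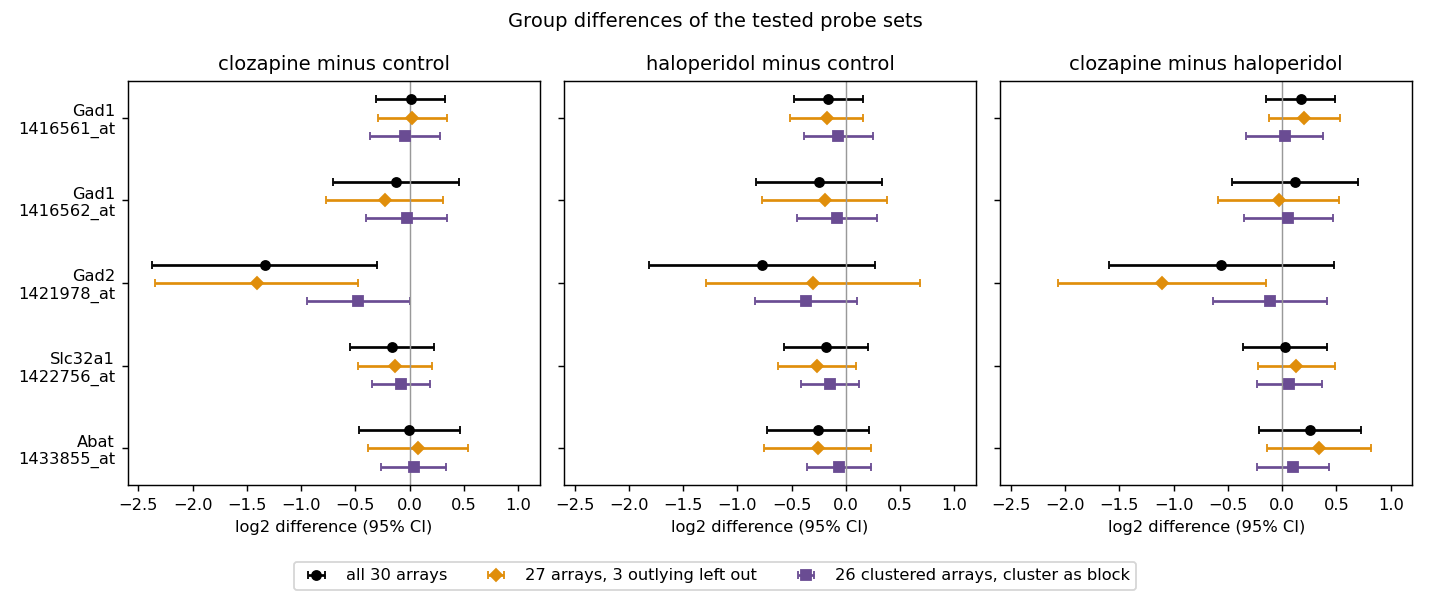
Differences of group means on the log2 scale with 95% confidence intervals for the 5 tested probe sets, in 3 panels by comparison, for all 30 arrays, for 27 without the 3 outlying arrays and for 26 with the array cluster as a block. Gad2, clozapine minus control, is at -1.34 over all arrays and -0.47 with the block. Every interval of the other probe sets includes 0, and some are wide. That of Gad1 1416562_at, haloperidol minus control over all arrays, runs from -0.83 to 0.33.

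Gad1, the other glutamate decarboxylase gene, has a pair of probe sets designed on the same transcript record, and neither differed between groups beyond its spread. The probe set 1416561_at had a lowest, median and highest value of 11.51, 12.30 and 12.89 in clozapine-treated mice, 11.79, 12.07 and 12.69 in haloperidol-treated mice and 11.80, 12.27 and 12.72 in controls. The groups overlapped, with 6 of 10 clozapine arrays and 8 of 10 haloperidol arrays within the control range. Means were 12.28 ± 0.42 with clozapine, 12.11 ± 0.32 with haloperidol and 12.27 ± 0.28 in controls (SD, n = 10 each). The differences were 0.0076 (SE 0.16) for clozapine minus control, -0.16 (SE 0.16) for haloperidol minus control and 0.17 (SE 0.16) for clozapine minus haloperidol. The 95% interval for clozapine minus control, -0.31 to 0.33, does not reach a 1.5-fold change in either direction.

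The second Gad1 probe set, 1416562_at, was more variable, with a within-group SD of 0.66 against 0.34 for 1416561_at. Its lowest, median and highest values were 9.85, 10.90 and 11.74 with clozapine, 9.42, 10.93 and 11.84 with haloperidol and 10.17, 11.09 and 11.95 in controls. Means were 10.97 ± 0.54 with clozapine, 10.85 ± 0.81 with haloperidol and 11.09 ± 0.61 in controls (SD, n = 10 each). Clozapine minus control was -0.13 (SE 0.28), haloperidol minus control -0.25 (SE 0.28) and clozapine minus haloperidol 0.12 (SE 0.28), and the sign of the last depended on haloperidol 7, without which it was -0.037. Haloperidol minus control was -0.090 without that array, and clozapine minus control was -0.23 without control 1. Intervals of this probe set were wider, -0.71 to 0.45 for clozapine minus control.

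The Gad1 probe sets therefore gave the same call, with differences in opposite directions from 0 for clozapine against control, each smaller than its SE. Within clusters their correlation was 0.13 in A (Pearson's r, Spearman's rho 0.073, n = 11), 0.77 in B (rho 0.71, n = 8) and 0.79 in C (rho 0.54, n = 7), and in C it fell to -0.11 without the 2 farthest arrays. Of 24 such relations examined within clusters, over 8 pairs of measures, none passed the correction by Pearson or by Spearman (permutation tests, exact in B and C, smallest adjusted p = 0.412).

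The gap between the Gad1 probe sets, 1416561_at minus 1416562_at, differed between array clusters, while the 3 groups overlapped. It ranged from 0.35 to 0.76 in cluster B, from 0.97 to 2.19 in A and from 1.19 to 2.10 in C, so B did not overlap A or C. By group its medians were 1.30 with clozapine, 1.02 with haloperidol and 1.28 in controls. The widest gaps, 3.26 in haloperidol 7 and 2.26 in control 1, were in the arrays with the widest 3' minus 5' differences. Within clusters the gap correlated with that difference with r = 0.60 in A, 0.63 in B and 0.25 in C, and none of these passed the correction (permutation tests, exact in B and C, adjusted p = 0.412, 0.412 and 0.931). The part of RNA quality in the Gad1 gap was otherwise not tested.

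**Figure D4:**
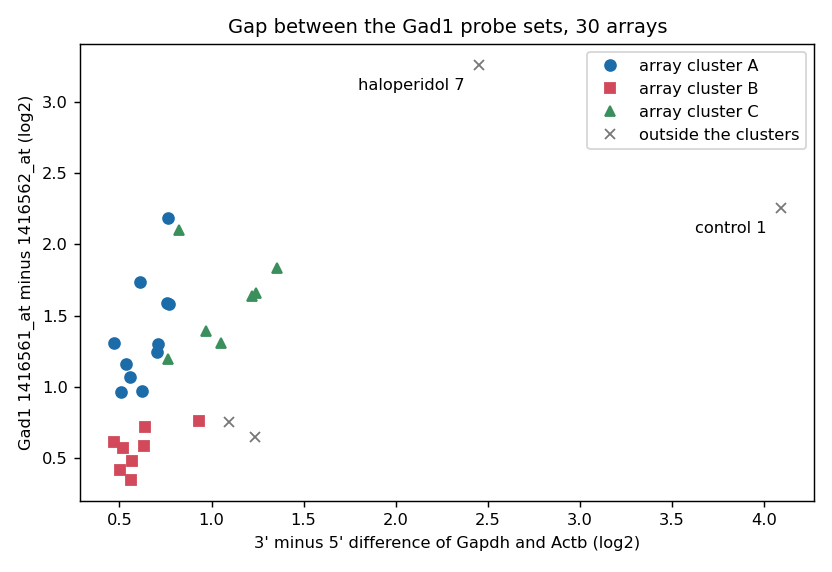
Log2 difference between the Gad1 probe sets 1416561_at and 1416562_at (vertical) against the RNA quality measure, the 3' minus 5' difference on the log2 scale (horizontal), 1 point per array, with array clusters marked. Cluster B lies lowest, at 0.35 to 0.76, and haloperidol 7 and control 1 stand apart at 3.26 and 2.26.

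Slc32a1, the vesicular transporter, was close between the groups. Its probe set 1422756_at had a lowest, median and highest value of 7.87, 8.34 and 8.68 with clozapine, 7.61, 8.07 and 9.49 with haloperidol and 7.33, 8.59 and 8.74 in controls. The highest value was that of haloperidol 2 and the lowest that of control 5. Means were 8.31 ± 0.26 with clozapine, 8.28 ± 0.55 with haloperidol and 8.47 ± 0.42 in controls (SD, n = 10 each). The differences were -0.16 (SE 0.19) for clozapine minus control, -0.18 (SE 0.19) for haloperidol minus control and 0.024 (SE 0.19) between the drugs, each smaller than its SE. Without haloperidol 2, haloperidol minus control was -0.32 (SE 0.16, unadjusted p = 0.0617 by limma). By cluster the probe set averaged 8.64 in B, 8.38 in C and 8.00 in A, so unlike Gad2 its lowest cluster was A.

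The other Slc32a1 probe set, 1456457_at, stayed between 2.30 and 2.81 in all arrays and was not tested. At that level GCRMA values are compressed, and no call about agreement can be drawn from it. Its within-cluster correlations with 1422756_at were -0.28, -0.46 and -0.59 in A, B and C, none past the correction (permutation tests, exact in B and C, adjusted p = 0.850, 0.655 and 0.651).

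Abat, the degrading enzyme, had a lowest, median and highest value of 9.18, 9.84 and 10.88 with clozapine, 8.94, 9.69 and 10.52 with haloperidol and 9.11, 10.05 and 10.66 in controls by probe set 1433855_at. The groups overlapped throughout. Means were 9.97 ± 0.59 with clozapine, 9.71 ± 0.55 with haloperidol and 9.97 ± 0.42 in controls (SD, n = 10 each). Clozapine minus control was -0.0018 (SE 0.23), haloperidol minus control -0.26 (SE 0.23) and clozapine minus haloperidol 0.25 (SE 0.23). By cluster Abat averaged 9.36 in A, against 10.19 in B and 10.05 in C, and the haloperidol group holds 5 of the 11 arrays of A. With the cluster block the haloperidol difference was -0.060 (SE 0.14). The second Abat probe set, 1422226_at, lay between 2.01 and 2.29 and was not tested.

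Over the 5 tested probe sets, 4 lay below 0 and 1 above for clozapine minus control, with a median of -0.13, while 44.7% of all tested probe sets lay below 0. For haloperidol minus control all 5 lay below 0, with a median of -0.25, beside 56.5% of all. For clozapine minus haloperidol 1 lay below 0 and 4 above, with a median of 0.12, beside 39.3% below 0 overall. Within clusters Gad2 did not follow the other GABA genes in a way that passed the correction. Its correlations ranged from -0.028 to 0.28 with Slc32a1 and from -0.66 to -0.016 with Abat. With Gad1 they ranged from -0.14 to 0.15 for 1416561_at and from -0.68 to 0.26 for 1416562_at (permutation tests, exact in B and C).

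Genes that supply the same pathway were described from a list of 15, of which 11 were on the array and 9 were tested. The list covers the glutamine cycle, the pyridoxal phosphate cofactor, aldehyde dehydrogenases and further transporters. None was called in any comparison, where 0% of all probe sets were, and none had an unadjusted p under 0.05. For clozapine minus control 5 lay above 0 and 4 below, with a median of 0.013, against 0.023 over all tested probe sets. For haloperidol minus control 1 lay above and 8 below, with a median of -0.064 against -0.030, and for clozapine minus haloperidol 7 lay above and 2 below, with a median of 0.077 against 0.050.

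The widest difference was that of Slc38a1, a transporter that brings glutamine into neurons. It had 7.95 ± 1.76 in clozapine-treated mice and 8.91 ± 0.70 in controls (SD, n = 10 each), a difference of -0.96 (SE 0.50, adjusted p = 0.9997 by limma), and 8.82 ± 0.77 with haloperidol. Its lowest, median and highest values were 3.94, 8.12 and 9.81 with clozapine, 6.85, 9.03 and 9.49 with haloperidol and 7.73, 8.92 and 9.93 in controls. The value of 3.94 was that of clozapine 7, and the next lowest clozapine array had 6.53. With the cluster block, which leaves clozapine 7 out, the clozapine difference was -0.19 (SE 0.18).

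Aldh9a1, an aldehyde dehydrogenase that can form GABA from putrescine-derived aldehyde, averaged 9.29 ± 0.34 with clozapine and 8.97 ± 0.43 in controls (SD, n = 10 each), a difference of 0.33 (SE 0.19). Glul, the astrocytic glutamine synthetase, differed by 0.14 (SE 0.12) for clozapine minus control and by 0.039 (SE 0.12) for haloperidol minus control. Glud1, glutamate dehydrogenase, differed by -0.15 with clozapine and -0.16 with haloperidol (SE 0.15 each), both against control. Pdxk, the kinase that makes pyridoxal phosphate, differed by -0.10 with clozapine and -0.036 with haloperidol (SE 0.14 each). Got1, the cytosolic aspartate aminotransferase, differed by -0.16 with clozapine and -0.24 with haloperidol (SE 0.22 each). Slc1a1, a neuronal glutamate transporter, differed by 0.15 with clozapine and -0.0076 with haloperidol (SE 0.10 each). The glutamine transporters Slc38a2 and Slc38a3 differed by 0.013 (SE 0.15) and 0.22 (SE 0.24) for clozapine minus control. Slc6a12, a transporter of GABA and betaine, and Slc6a13, a further GABA transporter, averaged 2.15 and 2.91 over all arrays and were not tested.

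**Figure D5:**
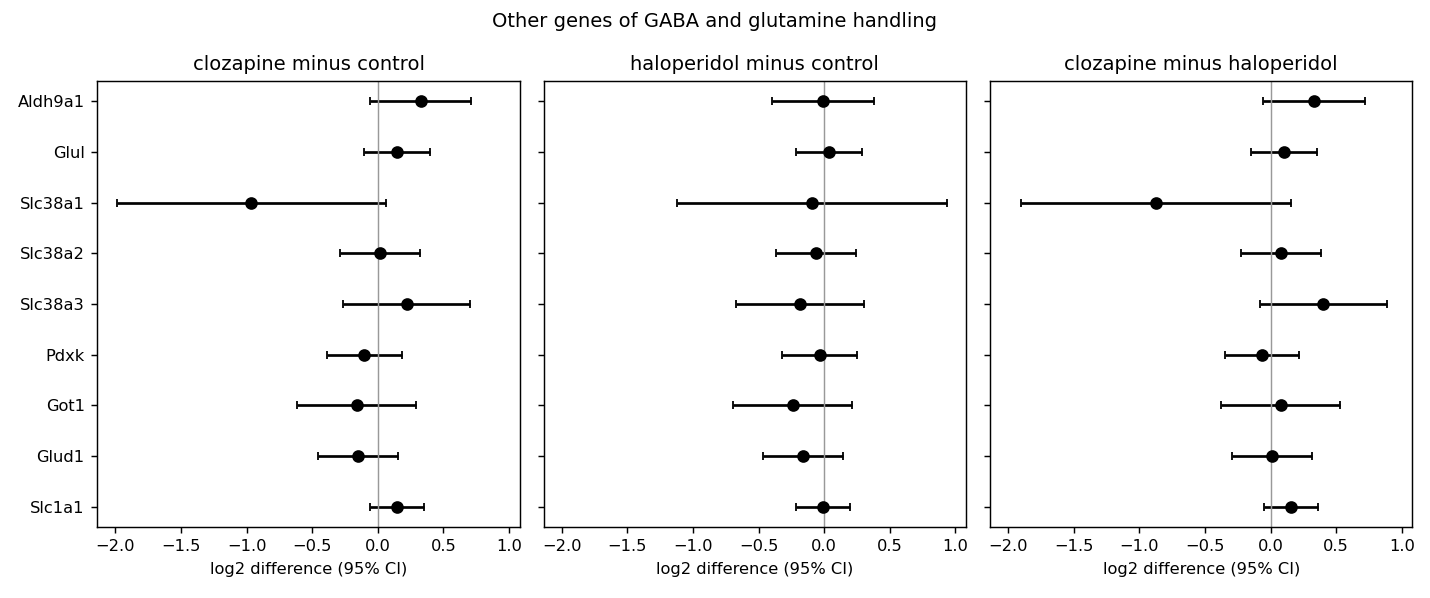
Differences of group means on the log2 scale with 95% confidence intervals for the 9 tested genes of the wider GABA and glutamine pathway, in 3 panels by comparison (n = 10 per group). Every interval includes 0, and Slc38a1 has the widest, centred at -0.96 for clozapine minus control.

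Markers of the neurons that use GABA were set beside these values. All 7 striatal and 6 of 7 glutamatergic markers on the array reached the tested level, and so did 4 of 9 cerebellar markers. The mean log2 level of 10 tested interneuron markers was 8.75 ± 0.26 with clozapine, 8.62 ± 0.36 with haloperidol and 8.71 ± 0.25 in controls (SD, n = 10 each), with ranges of 8.34 to 9.04 with clozapine, 8.18 to 9.43 with haloperidol and 8.24 to 9.18 in controls. By cluster it was 8.40 in A, 8.77 in B and 8.84 in C, so it was lowest in A, where Gad2 was intermediate. Vip had the same order of clusters, with 7.14 in A, 8.25 in B and 8.44 in C. So did Npy, with 9.46, 9.96 and 10.31. Not every interneuron marker had this order. A was not lowest for Reln (9.36, 9.30 and 9.33), Nos1 (6.92, 6.86 and 7.01) or Cck (10.91, 11.09 and 10.87). The 7 tested striatal projection neuron markers averaged 8.17 in A, 8.17 in B and 8.05 in C, and the 5 tested GABAergic identity transcription factors 6.37, 6.36 and 6.07. The striatal mean combines genes that ran in different directions: Pde10a, a phosphodiesterase, averaged 9.81 in A, 8.34 in B and 7.10 in C, and Ppp1r1b, which encodes DARPP-32, 8.27, 9.03 and 8.75. The 6 tested glutamatergic markers averaged 8.64 in A, 9.21 in B and 8.82 in C. That order rests on Camk2a, a calcium-dependent kinase subunit, at 7.46, 10.33 and 6.91, and without it the other 5 averaged 8.87 in A, 8.99 in B and 9.20 in C. All of these single markers were picked with their values already known. That holds for Vip, Npy, Reln, Nos1 and Cck as well as for Pde10a, Ppp1r1b and Camk2a. No tested gene of the pathway list or of the 12 marker lists with tested genes was called in any comparison. The part of cell composition in the Gad2 values was not tested.

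For each gene, the 3 probe sets of other genes most like it were those with the highest Pearson correlation of deviations from the group means over the 30 arrays. These arrays fall into clusters, so the correlations are given as a description, with the value over 26 arrays after subtracting cluster means beside each. For Gad2 they were Cacnb4, a calcium channel subunit (0.90, and 0.74 within clusters), Efcab14 (0.89 and 0.42) and Plcb1, a phospholipase C (0.89 and 0.66). Cacnb4 shared the order of the clusters, with means of 10.03 in B, 9.05 in A and 7.97 in C. For Gad1 1416561_at they were Ppp1cc, a protein phosphatase subunit (0.88 and 0.87), Eif4g2, a translation factor (0.87 and 0.80), and Synpr, a synaptic vesicle protein (0.83 and 0.74). For Slc32a1 they were Ints11 (0.89 and 0.53), Ramp1 (0.89 and 0.59) and Map1lc3b (0.89 and 0.64), and for Abat they were Impa1 (0.93 and 0.72), Rnf11 (0.93 and 0.75) and Ermp1 (0.92 and 0.66). No gene appeared among the 3 of more than 1 of the GABA genes.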

How the data were processed

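Values deposited by the authors are log2 expression, 1 per probe set and array, from GCRMA (named in the submitters' processing notes), which corrects background by probe sequence, normalizes between arrays and summarises probes, and compresses differences near background. Its version is not given in the sources used here. Array medians lay between 4.63 and 4.88. The number of arrays limits the precision.

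Groups follow the sample titles. All 30 arrays entered a single limma 3.58.1 fit in R 4.3.3 (lmFit, eBayes; 27 residual degrees of freedom, no block, two-sided). P-values were adjusted by Benjamini-Hochberg over the 12944 probe sets with a mean of at least 4; 64 Affymetrix controls were left out. The fit was tested on simulated data with independent noise and no array clusters. That test does not bear on results that depend on the clusters. Correlations between measures used permutation tests within clusters of at least 6 arrays, exact below 10 arrays and otherwise with 100000 permutations. Named genes were the members of the rule, the pathway list and the 3 genes most like each member. Single members of the marker lists were named as well, after their values were seen where the text says so. Alternatives were no filter, quantile normalization, replicate and cluster blocks, an RNA quality covariate, arrayWeights and leaving out outlying arrays. Members, lists, clusters and tests were chosen with earlier results of these data known.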

Additional observations from a re-analysis of the deposited data

Results flagged for a closer look

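Slc32a1 (1422756_at) in control 5 had 7.3253 on the log2 scale, the lowest of all 30 arrays and set apart from the other 9 controls, of which the lowest had 8.35. Its gap to that array was 0.724 of the control range, above the 0.466 that Dixon's test allows for 10 values. The same array was also the lowest control for Gad1 1416561_at, at 11.80, and for Abat 1433855_at, at 9.11, but not for Gad2, at 7.42. It belongs to cluster A, where the Slc32a1 values of the other controls were 8.37 and 8.35. Of 15 combinations of probe set and group examined, 1 met this criterion, and chance gives about 1 in 20.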

How the results depend on the processing

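No probe set of the GABA genes was called under any alternative except Gad2 for clozapine against control with arrayWeights. Over all probe sets, calls at an adjusted p under 0.05 (limma) were 0 in all 3 comparisons without a filter, with quantile normalization, with the replicate block, with the RNA quality covariate, in the 26 clustered arrays without a block (chosen after seeing the data) and when outlying arrays were left out, alone or together. The exceptions were 1 for haloperidol against control with the cluster block, 1731 for clozapine against control with arrayWeights (863 higher and 868 lower), and 5 for haloperidol against control with arrayWeights and the cluster block together, a setting chosen after seeing the data. With the replicate block there were 0 calls in every comparison, and 846, 540 and 642 probe sets had an unadjusted p under 0.05 for clozapine against control, haloperidol against control and clozapine against haloperidol. The main counts were 563, 298 and 406. In the same order they were 1074, 510 and 542 without a filter, 897, 549 and 763 with the cluster block, 1069, 407 and 506 with the RNA quality covariate, 3994, 3094 and 2467 with arrayWeights, 1205, 415 and 1725 in the 26 clustered arrays, 1002, 1651 and 1054 with weights and block, 868, 242 and 475 without control 1, 731, 324 and 835 without haloperidol 2, 689, 749 and 1363 without haloperidol 7, and 1470, 375 and 2300 without all 3 of these arrays. Deviations of same-numbered arrays had a mean correlation of 0.202 (-0.50 to 0.80), against -0.018 for other pairs between groups, but only 17 of 30 same-numbered pairs exceeded 0.1 and 4 of 30 arrays correlated best with an array of their own number, so the number was not taken as a pairing. With the replicate block the SE for Abat was 0.152, against 0.229 without it. With the RNA quality covariate Gad2 gave -1.44 (unadjusted p = 0.0036, adjusted p = 0.411) for clozapine and -0.98 (unadjusted p = 0.0412, adjusted p = 0.984) for haloperidol. Of 180 alternative values for single probe sets, 161 kept direction and call, 1 gained a call and 18 changed sign, from main differences of -0.25 to 0.12; the cause was not tested. For clozapine minus control, Gad1 1416561_at gave -0.0040 with quantile normalization and -0.047 with the cluster block. Abat gave 0.020 and 0.038 with these, 0.043 with the RNA quality covariate, -0.0018 to 0.075 with single arrays left out (0.075 without control 1), 0.075 without the 3 outlying arrays, and 0.051 with weights and block. For clozapine minus haloperidol, Slc32a1 gave -0.0050 with quantile normalization and from -0.015 (without haloperidol 7) to 0.16 with single arrays left out. Gad1 1416562_at gave -0.073 with arrayWeights, -0.037 (without haloperidol 7) to 0.14 with single arrays left out, -0.034 without the 3 outlying arrays, -0.12 in the 26 clustered arrays and -0.0035 with weights and block. With weights and block, Gad1 1416562_at gave 0.053 for clozapine minus control and 0.056 for haloperidol minus control, and Gad1 1416561_at gave 0.026 for haloperidol minus control. Signal near background limits the Slc32a1 and Abat probe sets that were not tested.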

Other observations

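Marker lists of other tissues, regions and cell types were also set out by array cluster, and some of them differed in level between the clusters. The 9 tested hypothalamus and thalamus markers averaged 6.79 ± 0.11 in cluster A (SD, n = 11), 7.34 ± 0.11 in B (n = 8) and 7.24 ± 0.14 in C (n = 7). The 4 tested choroid plexus markers averaged 6.66 ± 0.25 in A, 7.24 ± 0.15 in B and 7.16 ± 0.20 in C, and the 9 tested oligodendrocyte markers 9.82, 10.08 and 10.11. In these lists B and C lay close together and A lay lowest, whereas for Gad2 B lay highest and C lowest. The mean over the 10 astrocyte markers was 9.31 in A, 9.29 in B and 9.25 in C, and that over the 8 tested microglia markers 7.17, 7.05 and 7.14. Single members of both lists differed more, here named after their values were seen. Slc1a2 averaged 8.66 in A, 7.002 in B and 6.57 in C, S100b 8.93, 9.63 and 9.66, Tyrobp 5.72, 6.82 and 6.88, and Aif1 5.73, 5.06 and 5.23. The 4 tested cerebellar markers averaged 7.47, 7.01 and 7.12, the 5 endothelial markers 7.33, 7.41 and 7.53, and the 7 olfactory bulb markers 7.26, 7.28 and 7.18. The olfactory bulb mean varied between arrays of a cluster, with SDs of 0.27 in A, 0.64 in B and 0.75 in C. In B it ran from 6.01 to 7.85. None of the 7 blood and pituitary markers on the array reached a mean of 4, and Gh, growth hormone, had 9.17 in control 7, its highest array.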
